A study of Saccharomyces cerevisiae x Saccharomyces paradoxus and Saccharomyces cerevisiae and Saccharomyces paradoxus with 40 samples.

Results

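Assembly factors of the large (60S) ribosomal subunit were followed through sporulation in 2 yeast species and their hybrid. The module was a list of 30 budding yeast genes for such factors whose systematic names end in W. Of these, 29 were rows of the count tables, which hold 3217 genes, and all 29 passed the filter on low counts that left 3094 genes for testing. MAK21 YDR060W was not analysed here. The 29 were 4 RNA helicases (DBP2 YNL112W, DBP10 YDL031W, DRS1 YLL008W and MAK5 YBR142W), 3 rRNA methyltransferases (NOP2 YNL061W, SPB1 YCL054W and RRP8 YDR083W) and 16 nucleolar structural or RNA-binding factors (RLP24 YLR009W, NOP7 YGR103W, NOP4 YPL043W, NOP16 YER002W, NOC2 YOR206W, RRP15 YPR143W, EBP2 YKL172W, YTM1 YOR272W, RPF1 YHR088W, SSF1 YHR066W, RRS1 YOR294W, NIP7 YPL211W, NSA1 YGL111W, CIC1 YHR052W, LOC1 YFR001W and MRT4 YKL009W). The others were the GTPases NOG1 YPL093W and NUG1 YER006W, the Rix1 complex subunits RIX1 YHR197W and IPI1 YHR085W, and the late-acting factors NMD3 YHR170W and LSG1 YGL099W.

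Large subunits are built in the nucleolus, where assembly factors bind the nascent rRNA precursor, fold and modify it and hold places for ribosomal proteins that arrive later. The particle then passes through the nucleoplasm and leaves the nucleus, and the remaining factors are stripped off in the cytoplasm. In S. cerevisiae the genes for these factors are known to be transcribed together during rapid growth and to be shut down together when nutrients run out.

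Libraries were made from poly-A-selected RNA of S. cerevisiae, S. paradoxus and the hybrid of both, 40 in all. Cells were grown in YPD, a rich glucose medium, and then starved in potassium acetate, which makes diploid cells undergo meiosis and form spores. Stage T0 is the moment of transfer and served as the control, M1 is the start of meiosis I, M1M2 the transition from meiosis I to meiosis II, and M2 the end of meiosis II. Each parent had 3 libraries per stage, described as biological replicates, and the hybrid had 4. Reciprocal crosses gave 2 hybrid replicates each, with no label to tell them apart, and strain names are not given. All groups went through the same media, and every stage was compared with the T0 of its own genotype.

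Levels are given as CPM, counts scaled to a fixed library total over genes and adjusted by the trimmed mean of M values (TMM). Each is thus relative to the rest of its library and not an absolute amount. TMM factors ran from 0.531 to 1.34, and a factor under 1 raises every CPM of its library. In a bulk culture, fewer cells carrying an mRNA and less of it per cell cannot be told apart. Libraries held 23453 to 7732384 counts in genes, with a median of 1348916. The 4 shallowest, all of later stages, were 2 of S. cerevisiae (M1 and M1M2, each replicate 2), M2 replicate 2 of S. paradoxus and M2 replicate 3 of the hybrid. The typical spread between replicates was large, with a biological coefficient of variation of 0.871. The meiotic genes IME2 and DMC1, which start early in sporulation, were higher at M1 than at T0 in all 3 genotypes by edgeR, at log2 changes of 3.28 and 3.08 in S. cerevisiae, 3.69 and 5.40 in S. paradoxus and 2.50 and 3.78 in the hybrid. The S. cerevisiae M1 libraries were uneven in this. DMC1 stood at 76.2, 164 and 6.46 CPM at T0 and at 48.7, 1599 and 463 CPM at M1 there, so that M1 replicate 1 lay within the T0 range and the highest value came from the shallow replicate 2. The summed level of 4 early meiotic genes was 213 CPM in M1 replicate 1, also within the S. cerevisiae T0 range of 64.3 to 277 CPM, while the members' summed level in that library was 1768 CPM against 27313 to 45472 CPM at T0. Summed levels of 6 middle sporulation genes, NDT80 and SPR3 among them, reached 27807 to 43119 CPM in the hybrid at M1M2, against 474 to 8999 CPM in S. cerevisiae and 4463 to 23671 CPM in S. paradoxus at that stage. Libraries of 1 named stage thus differed between genotypes in their middle genes, and the part of this in the comparisons between genotypes was not tested. Hybrid T0 replicate 1 stood apart in its alleles, with 65.5% of all allele counts from S. paradoxus where the other 15 hybrid libraries had 49.5% to 52.0%.

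Promoters of 5 members are shown because the module shared 2 short motifs there. These are the PAC core, GATGAG, and the RRPE core, AAAATTTT, both known from ribosome biogenesis genes of S. cerevisiae. They were searched on both strands from 250 bases before to 50 bases after each annotated gene start, in the S. cerevisiae reference genome of RefSeq, build R64. AAAATTTT reads the same on both strands, and no PAC match overlapped an RRPE match in a member. Capitals mark every match in the bases printed, CTCATC being the PAC core on the other strand. The 250 bases before the start are printed 5′ to 3′ for RLP24, NOG1, NOP7 and DBP2, which carry both cores. RIX1 is printed as a member with no PAC core. Levels of all 5 are given library by library, those of RIX1 as the first listed member of its role.
RLP24 (chrXII:166287-166536, + strand): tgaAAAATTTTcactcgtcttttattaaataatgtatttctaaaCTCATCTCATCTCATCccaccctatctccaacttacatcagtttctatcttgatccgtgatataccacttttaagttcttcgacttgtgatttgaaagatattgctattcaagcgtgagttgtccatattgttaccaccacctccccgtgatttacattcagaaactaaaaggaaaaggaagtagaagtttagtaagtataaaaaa
NOG1 (chrXVI:370728-370977, + strand): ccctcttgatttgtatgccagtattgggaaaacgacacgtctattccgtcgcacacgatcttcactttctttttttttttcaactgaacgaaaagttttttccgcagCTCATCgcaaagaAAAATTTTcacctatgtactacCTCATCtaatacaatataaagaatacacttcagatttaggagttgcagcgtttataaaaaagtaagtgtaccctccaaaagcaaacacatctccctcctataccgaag
NOP7 (chrVII:695167-695416, + strand): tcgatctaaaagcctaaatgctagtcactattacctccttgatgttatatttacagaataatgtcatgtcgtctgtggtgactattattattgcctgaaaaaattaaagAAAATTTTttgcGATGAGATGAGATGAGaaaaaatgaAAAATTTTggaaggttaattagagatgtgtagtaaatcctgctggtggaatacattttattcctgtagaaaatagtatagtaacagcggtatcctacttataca
DBP2 (chrXIV:413389-413638, + strand): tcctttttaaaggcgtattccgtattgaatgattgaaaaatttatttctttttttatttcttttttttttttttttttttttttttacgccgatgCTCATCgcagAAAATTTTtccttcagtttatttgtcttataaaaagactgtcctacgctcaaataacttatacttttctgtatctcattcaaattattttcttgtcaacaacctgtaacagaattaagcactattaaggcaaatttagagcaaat
RIX1 (chrVIII:493646-493895, + strand): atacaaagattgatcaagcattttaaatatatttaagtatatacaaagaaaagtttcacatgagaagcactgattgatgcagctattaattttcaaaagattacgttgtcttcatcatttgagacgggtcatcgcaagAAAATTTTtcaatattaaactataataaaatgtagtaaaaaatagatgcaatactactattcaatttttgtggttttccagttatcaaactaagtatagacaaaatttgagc

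A PAC core was present in the window of 25 of the 29 genes, or 86.2%, against 20.4% of 6002 protein-coding genes of the genome. An RRPE core was present in 24, or 82.8%, against 9.03% of all. Both were found in 20 members, or 69.0% against 4.38%, and no member lacked both. SPB1, NSA1, RIX1 and IPI1 had no PAC core, and MAK5, NOP4, NOP16, SSF1 and LSG1 had no RRPE core. NOP7 carried 2 RRPE cores with 3 overlapping PAC cores between them, and RLP24 had its 3 upstream PAC cores farther out than most. RLP24 also had 1 PAC match inside the coding sequence, which is not printed. Upstream PAC matches began 67 to 231 bases before the start with a median of 120.5, and RRPE matches began 97 to 247 bases before it with a median of 138. Genes of the small subunit processome and rRNA modification were alike, with a PAC core in 88.2% of 34 and an RRPE core in 76.5%. Large-subunit ribosomal protein genes were not, with 11.6% and 9.3% of 43. A match describes these letters in the S. cerevisiae reference only, and the S. paradoxus promoters were not analysed here.

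**Figure D1:**
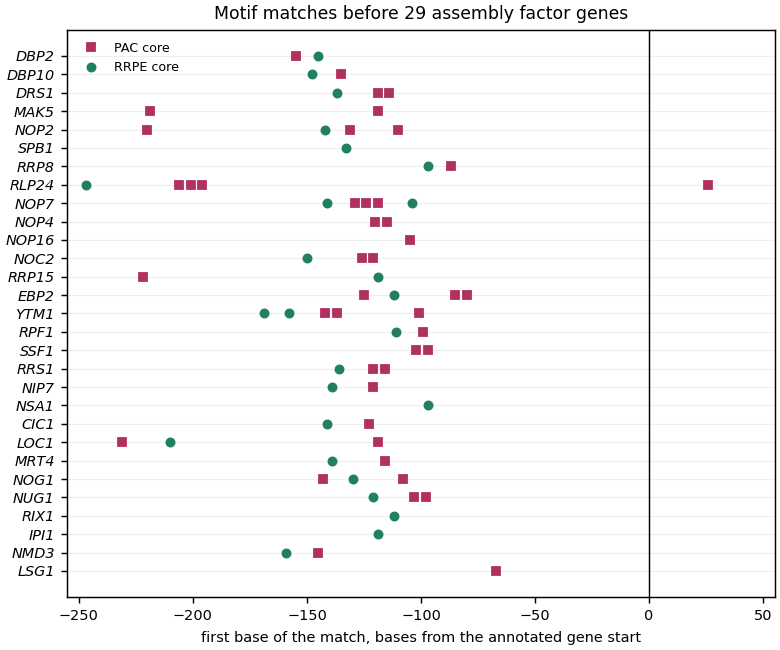
Positions of the PAC core (squares) and RRPE core (circles) around the annotated start of each of the 29 genes, in bases on the horizontal axis with the start at 0. Most of the matches lie 90 to 150 bases before the start: 32 of 44 PAC and 21 of 26 RRPE matches upstream.

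At T0 the module was abundant in S. cerevisiae and the hybrid and several-fold lower in S. paradoxus. Its 29 mRNAs summed to 45472, 27313 and 34229 CPM in the S. cerevisiae libraries, 26344, 26103, 26244 and 34281 CPM in the hybrid, and 5787, 5919.6 and 11605 CPM in S. paradoxus. No S. paradoxus library reached the lowest of the other genotypes. By M1 the sum was 1768, 3025 and 2045 CPM in S. cerevisiae, 2903, 2637 and 2025 CPM in S. paradoxus and 1303, 1359, 1555 and 1238 CPM in the hybrid. All 4 hybrid libraries then lay under every parent library. The sum in the hybrid was 1918 to 2264 CPM at M1M2 and 2059 to 4250.1 CPM at M2, above its M1 range at both stages. The lowest M2 value is from the shallow replicate 3, with 190 member counts. Without TMM, members held 0.162% of the gene counts of that library, within the 0.133% to 0.172% of the hybrid M1 libraries. S. cerevisiae M1M2 replicate 2 summed to 8517 CPM where the other libraries of that group gave 2126 and 1974 CPM. Its TMM factor, 0.531, was the lowest of all libraries. Without TMM, members held 0.452% of its gene counts, against 0.254% and 0.222% in the others. Per kilobase of coding sequence the most abundant member at T0 was DBP2 in all 3 genotypes, at 3844 ± 1669 CPM per kb in S. cerevisiae (SD, n = 3), 1065 ± 649.8 in S. paradoxus (SD, n = 3) and 2905 ± 722 in the hybrid (SD, n = 4). The lowest pair was RIX1 and LSG1 in all 3 genotypes, at 302 ± 42.9 and 189.8 ± 69.1 CPM per kb in S. cerevisiae (SD, n = 3) and 218 ± 30.1 and 223 ± 186 CPM per kb in the hybrid (SD, n = 4), where they did not differ beyond their spread.

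**Figure D2:**
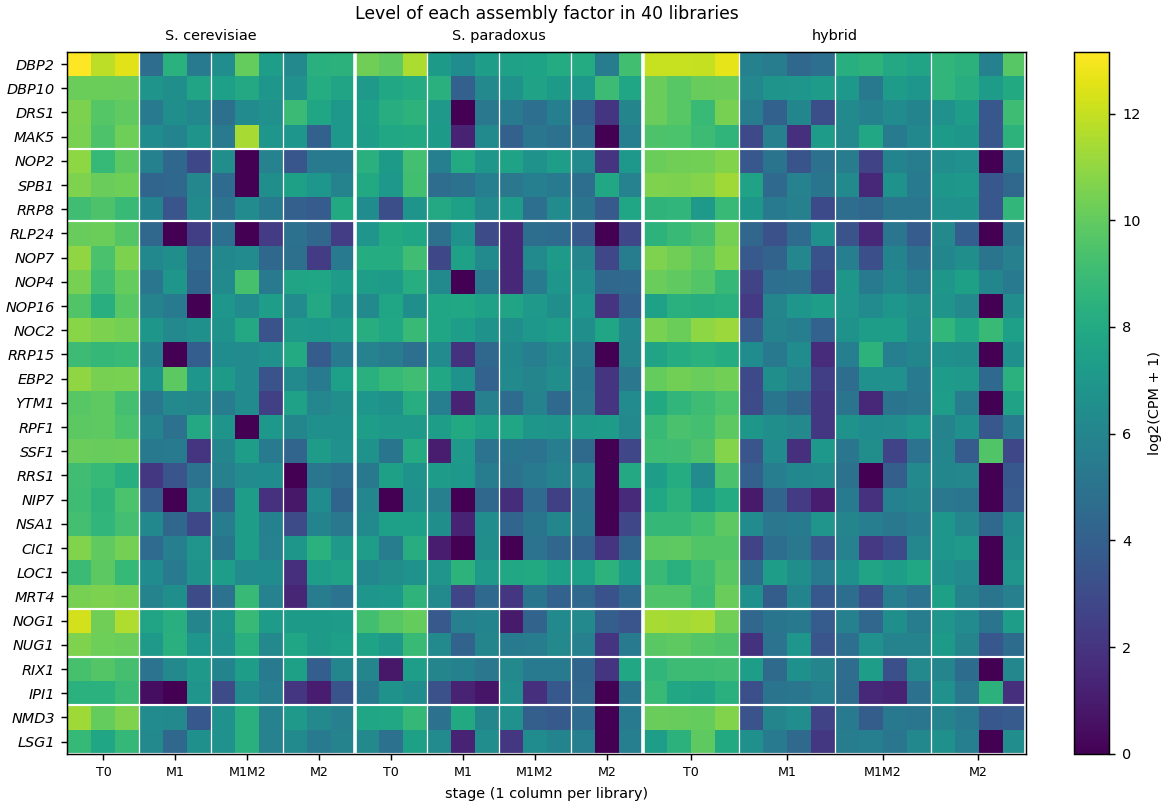
Level of each member (rows, grouped by role from helicases at the top to late factors at the bottom) in each of the 40 libraries (columns), as log2(CPM + 1). The T0 columns of S. cerevisiae and the hybrid are bright in every row, those of S. paradoxus are dimmer, and later stages are dark with scattered zeros.

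**Figure D3:**
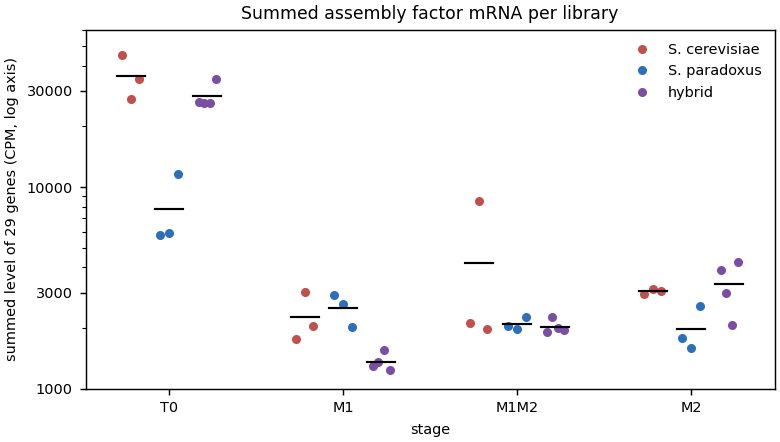
Summed level of the 29 mRNAs in each library on a log axis in CPM, by stage, with a bar at each group mean. The T0 points of S. paradoxus, 5787 to 11605 CPM, lie under those of the other genotypes, the hybrid points at M1 lie under both parents, and at M2 those of S. paradoxus, 1598 to 2583 CPM, lie under those of S. cerevisiae, 2955 to 3116 CPM.

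The change from T0 to each later stage was tested with edgeR's quasi-likelihood test over all genes, with Benjamini-Hochberg adjustment, and a gene was called at an adjusted p under 0.05. In S. cerevisiae 23 of the 29 members fell at M1, 18 at M1M2 and 18 at M2, where 4.78%, 5.43% and 11.6% of all genes tested fell. The members' median log2 change was -4.06, -3.76 and -3.50, against 0.02, 0.03 and 0 over all genes. In the hybrid 23, 24 and 20 fell, where 9.41%, 12.4% and 14% of all genes did, with medians of -4.25, -3.77 and -3.00 against -0.06, -0.04 and -0.22. In S. paradoxus 3, 6 and 12 fell, where 1.94%, 5.11% and 8.24% of all genes did, with medians of -1.38, -1.86 and -2.19 against -0.10, -0.17 and -0.33. No member rose from T0 at any stage in any genotype by this test, where 4.07%, 6.98% and 11.2% of all genes rose in S. cerevisiae at M1, M1M2 and M2, 3.07%, 9.73% and 12% in the hybrid and 1.42%, 4.23% and 6.88% in S. paradoxus. With S. cerevisiae M1 replicate 2 or 3 left out, 14 and 15 members were called at M1, and with M1M2 replicate 1 or 3 left out, 9 at M1M2. The S. paradoxus count at M1M2 dropped to 1 without T0 replicate 3 and to 2 without any 1 of its M1M2 libraries, and at M2 to 4 without T0 replicate 3, 3 without M2 replicate 2 and 7 without M2 replicate 3. The 3 comparisons of a genotype share their T0 libraries. Counts of members at an unadjusted p under 0.05, or called by other tools, are given below as description. Unless stated, the share of all genes that met the same rule is not given beside them.

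**Figure D4:**
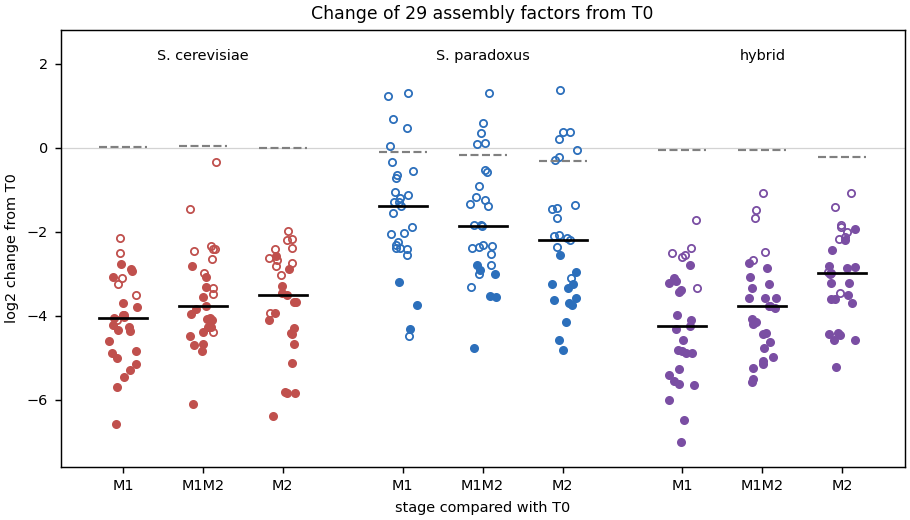
Log2 change from T0 of each of the 29 members, by genotype and stage: filled points passed the test, open points did not, the solid bar is the members' median and the dashed grey bar the median of all genes tested. Members sit between -7.01 and -0.35 in S. cerevisiae and the hybrid, and between -4.81 and 1.36 in S. paradoxus.

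The libraries were also compared without a model. All libraries at M1 lay under all T0 libraries for 29 of 29 members in S. cerevisiae (18.5% of all genes), 29 in the hybrid (14.6% of all genes) and 14 in S. paradoxus (15.7% of all genes). At M1M2 the counts were 26 in S. cerevisiae, 28 in the hybrid and 16 in S. paradoxus, where 19.7%, 18.6% and 24% of all genes were that low. At M2 they were 29, 25 and 18, where 24%, 16.9% and 24.3% were. The reverse, every later library above every T0 library, was seen in S. paradoxus for RPF1 and LOC1 at M1 and for LOC1 at M1M2 and M2, where 10.3%, 18.5% and 14.8% of all genes were that high. The middle member kept 6.08% of its T0 mean level at M1 in S. cerevisiae, 5.30% in the hybrid and 38.7% in S. paradoxus. Over the 9 comparisons DBP2 and NOG1 were called every time, 12 members were called at all 3 stages in both S. cerevisiae and the hybrid, and 13 were called at least once in S. paradoxus. The share of all genes that met each of these combined rules was not computed, so these counts have no background beside them.

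Among the helicases, which remodel RNA structure in the precursor, DBP2 had the highest levels. DBP2 in S. cerevisiae stood at 9129, 3659 and 6137 CPM at T0, 24.7, 336 and 44 at M1, 85.4, 1044 and 157 at M1M2, and 71.5, 322 and 346 at M2. DBP2 in S. paradoxus stood at 1271, 1002 and 2969 CPM at T0, 145, 81.9 and 165 at M1, 185, 195 and 273 at M1M2, and 270.4, 46.9 and 580.0 at M2. DBP2 in the hybrid stood at 4172, 4259, 4094 and 6542 CPM at T0, 54.9, 45.6, 21 and 26.7 at M1, 312, 363, 243 and 206 at M1M2, and 406, 356, 54.2 and 847 at M2. Every T0 library lay above every later library of its genotype. In the hybrid the 4 M1 libraries were also under all M1M2 libraries. The log2 change to M1 was -7.01 ± 0.85 in the hybrid (SE; edgeR adjusted p = 9.61e-09), the largest fall of any member there. It was -5.70 ± 0.94 in S. cerevisiae (SE; edgeR adjusted p = 8.48e-05) and -3.74 ± 0.84 in S. paradoxus (SE; edgeR adjusted p = 0.00319). The S. paradoxus calls of DBP2 at the later stages had adjusted p = 0.00957 at M1M2 and 0.0208 at M2 by edgeR. The first was 0.0821, 0.0664 and 0.0553 without T0 replicate 3, M1M2 replicate 1 and M1M2 replicate 2, and the second 0.141, 0.0682 and 0.162 without T0 replicate 3, M2 replicate 1 and M2 replicate 2. From M1 to M1M2 DBP2 rose in the hybrid by 2.92 ± 0.71 on the log2 scale (SE; edgeR adjusted p = 0.00313), and it was called under each of the 16 alternatives and single-library omissions of that step. Of the other helicases, DBP10 and DRS1 fell at all 3 stages in the hybrid and MAK5 at M1 alone. Of these hybrid calls, that of DRS1 at M2 was lost in 7 of 16 alternatives and single-library omissions, with adjusted p up to 0.114, that of DBP10 at M2 in 2, up to 0.0533, and that of MAK5 at M1 in 2, up to 0.0798.

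The rRNA methyltransferases NOP2, SPB1 and RRP8 modify the 25S rRNA. NOP2 in S. cerevisiae measured 1957, 457 and 921 CPM at T0, 53.7, 20.4 and 6.28 at M1, 89.7, 0 and 56.5 at M1M2, and 10.6, 41.1 and 43.4 at M2. NOP2 in S. paradoxus measured 328, 144 and 602 CPM at T0, 49.7, 264 and 124 at M1, 189, 105 and 157 at M1M2, and 75.9, 2.93 and 129 at M2. NOP2 in the hybrid measured 1191, 1249.6, 1326 and 1594 CPM at T0, 11, 32.4, 9.68 and 30 at M1, 46, 5.42, 60.6 and 45.6 at M1M2, and 87.2, 101, 0 and 37.6 at M2. The later libraries lay under T0 without overlap in S. cerevisiae and the hybrid. In S. paradoxus the M1 and M1M2 libraries overlapped the T0 range. NOP2 had a log2 change to M1 of -5.30 ± 1.07 in S. cerevisiae (SE; edgeR adjusted p = 0.000668) and -6.01 ± 0.94 in the hybrid (SE; edgeR adjusted p = 4.15e-06). In S. paradoxus the log2 change was -1.3 ± 0.89 (SE; edgeR adjusted p = 0.557). SPB1, which was among the 3 members called in S. paradoxus at M1, fell there by 3.19 ± 0.94 on the log2 scale (SE; edgeR adjusted p = 0.0391). That call was lost without T0 replicate 1 or 3 or any M1 library of the species, at adjusted p of 0.0549, 0.253, 0.175, 0.176 and 0.0663 by edgeR. RRP8 passed at M1M2 in S. cerevisiae and in the hybrid. The S. cerevisiae call was lost without any 1 of the T0 and M1M2 libraries, at adjusted p between 0.0604 and 0.165 by edgeR. In S. paradoxus the RRP8 log2 change was 1.3 ± 1.09 at M1 (SE; edgeR adjusted p = 0.675).

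RLP24 and NOP7 were followed among the nucleolar structural factors. Rlp24 is a relative of a ribosomal protein that holds its place on the early particle, and Nop7 forms a complex with Ytm1 and Erb1. RLP24 in S. cerevisiae was at 1102, 1176 and 788 CPM at T0, 20.7, 0 and 4.4 at M1, 26.5, 0 and 4.04 at M1M2, and 29.3, 19.1 and 4.2 at M2. RLP24 in S. paradoxus was at 114, 254 and 213 CPM at T0, 27.5, 109 and 6.92 at M1, 1.88, 25.5 and 23.1 at M1M2, and 11.8, 0 and 5.94 at M2. RLP24 in the hybrid was at 359, 473, 623 and 1355 CPM at T0, 19.2, 8.71, 23 and 97.9 at M1, 9.3, 1.81, 34.4 and 13.4 at M1M2, and 71.6, 14, 0 and 32.6 at M2. In every genotype all later libraries lay under T0. In S. cerevisiae its log2 changes to M1, -6.58 ± 1.34 (SE; edgeR adjusted p = 0.000768), and to M1M2, -6.12 ± 1.39 (SE; edgeR adjusted p = 0.0019), were the largest falls of the module. In the hybrid it fell most of all members to M1M2, by 5.57 ± 1.09 (SE; edgeR adjusted p = 8e-05). In S. paradoxus the log2 change at M1 was -2.04 ± 1.08 (SE; edgeR adjusted p = 0.386). RLP24 fell in S. paradoxus at M2, with -4.81 ± 1.24 (SE; edgeR adjusted p = 0.00398), the largest fall there, and at M1M2, with -3.53 ± 1.15 (SE; edgeR adjusted p = 0.0391). The M1M2 call was lost without T0 replicate 2 or 3 or any M1M2 library, at adjusted p between 0.0844 and 0.255.

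NOP7 in S. cerevisiae came to 2006, 673 and 1521 CPM at T0, 68.6, 91.7 and 22 at M1, 69.5, 80.3 and 20.2 at M1M2, and 27.6, 4.01 and 42 at M2. NOP7 in S. paradoxus came to 282, 279 and 557 CPM at T0, 6.35, 185 and 77.5 at M1, 1.88, 74.7 and 143 at M1M2, and 61.5, 5.86 and 47.5 at M2. NOP7 in the hybrid came to 1547, 1258, 965 and 1594 CPM at T0, 11.9, 17.2, 67 and 8.9 at M1, 50.5, 8.13, 60.6 and 29.7 at M1M2, and 64.9, 93.4, 32.5 and 52.7 at M2. The T0 libraries of each genotype were above all its later ones, by a wide margin in S. cerevisiae and the hybrid and a narrow one in S. paradoxus. NOP7 had log2 changes to M1 of -4.59 ± 1.08 in S. cerevisiae (SE; edgeR adjusted p = 0.00312) and -5.65 ± 0.96 in the hybrid (SE; edgeR adjusted p = 1.88e-05). In S. paradoxus it passed at M2, falling by 3.24 ± 1.00 (SE; edgeR adjusted p = 0.0188), and lost that call without T0 replicate 3, M2 replicate 2 or M2 replicate 3, at adjusted p of 0.0718, 0.132 and 0.0567.

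Of the 16 nucleolar structural factors, 14 fell at M1 in S. cerevisiae, 13 in the hybrid and none in S. paradoxus. Of all genes tested, 4.78%, 9.41% and 1.94% fell in these comparisons. In S. paradoxus 6 of the 16 had an unadjusted p under 0.05. LOC1, an RNA-binding factor also known for mRNA localization, was the one member whose S. paradoxus libraries all lay above T0 at each later stage. LOC1 held 70, 90.5 and 104 CPM there at T0, 116, 367 and 138 at M1, 232, 250.0 and 170.4 at M1M2, and 169, 361 and 152 at M2. No later library reached down to T0, with a log2 change of 1.23 ± 0.89 at M1 (SE; edgeR adjusted p = 0.594). In S. cerevisiae LOC1 went from 494, 901 and 442 CPM at T0 to 84.6, 40.7 and 109 CPM at M1 and fell by 2.93 ± 0.95 on the log2 scale (SE; edgeR adjusted p = 0.0405). That call was lost in 9 of 14 alternatives and single-library omissions. LOC1 was named after its values were seen. SSF1 has a close paralog, SSF2, and how the authors' counting split reads between them is not given in the sources used here. SSF1 fell by 5.46 ± 1.42 at M1 in S. cerevisiae (SE; edgeR adjusted p = 0.00863, and 0.0559 without M1 replicate 3), where SSF2 had a log2 change of -0.34 ± 1.3 (SE; edgeR adjusted p = 0.919). SSF2 there stood at 205, 231 and 184 CPM at T0 and at 37.5, 356 and 105 CPM at M1. The 356 CPM came from 35 counts in the shallow replicate 2, and the other M1 libraries lay under all T0 libraries. Whether the paralogs differed in their change was not tested.

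NOG1 encodes a GTPase that stays bound to the particle from the nucleolus to the cytoplasm and takes part in the release of Rlp24. NOG1 in S. cerevisiae read 4911, 1270.3 and 3121 CPM at T0, 202, 316 and 63.4 at M1, 112, 482 and 148 at M1M2, and 141, 141 and 148 at M2. NOG1 in S. paradoxus read 569.9, 860.2 and 1063 CPM at T0, 11.6, 52.2 and 61 at M1, 0.942, 17 and 75 at M1M2, and 72.8, 14.7 and 9.9 at M2. NOG1 in the hybrid read 2814, 2603, 2886 and 1319 CPM at T0, 19.2, 33.6, 39.1 and 13.3 at M1, 53.1, 19, 92.1 and 46.8 at M1M2, and 116, 81.1, 32.5 and 157 at M2. T0 and later libraries did not overlap in any genotype, S. paradoxus included. NOG1 had log2 changes to M1 of -4.04 ± 0.89 in S. cerevisiae (SE; edgeR adjusted p = 0.00172), -4.31 ± 0.89 in S. paradoxus (SE; edgeR adjusted p = 0.00117) and -6.49 ± 0.86 in the hybrid (SE; edgeR adjusted p = 9.27e-08). Its log2 change in S. paradoxus at M1M2, -4.77 ± 0.92 (SE; edgeR adjusted p = 0.000206), was the largest fall there. NUG1, the other nuclear GTPase, fell at every stage in S. cerevisiae and the hybrid and at M2 in S. paradoxus. The S. cerevisiae call of NUG1 at M1 was lost without any 1 of the T0 and M1 libraries and with the replicate block, at adjusted p between 0.053 and 0.158 by edgeR. At M1M2 and M2 there it was lost in 3 and 2 of 14 alternatives and single-library omissions, up to 0.111 and 0.0687, and at M2 in S. paradoxus in 5 of 14, up to 0.143.

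The Rix1 complex acts on the particle in the nucleoplasm. RIX1 in S. cerevisiae gave 643, 805 and 627 CPM at T0, 30.9, 71.3 and 138 at M1, 60.2, 161 and 41.7 at M1M2, and 176, 14 and 64.4 at M2. RIX1 in S. paradoxus gave 62.5, 0.787 and 159 CPM at T0, 62.4, 53.6 and 35.8 at M1, 72.1, 42.5 and 40.7 at M1M2, and 17.9, 2.93 and 236 at M2. RIX1 in the hybrid gave 403, 514, 516 and 566 CPM at T0, 159, 22.5, 96.4 and 63.4 at M1, 25.1, 168, 8.23 and 71.5 at M1M2, and 63.5, 24.1, 0 and 66.5 at M2. The T0 libraries stood clear of the rest in S. cerevisiae and the hybrid and were mixed with the rest in S. paradoxus, where 1 T0 library had a single count. No S. cerevisiae change of RIX1 passed, the log2 values being -3.10, -3.35 and -3.03 with adjusted p of 0.0907, 0.0797 and 0.0551 by edgeR. RIX1 fell in the hybrid at M1M2, with a log2 change of -2.88 ± 1.02 (SE; edgeR adjusted p = 0.033), and at M2, with -3.60 ± 1.06 (SE; edgeR adjusted p = 0.00764). The first was lost without any 1 of the T0 libraries or without M1M2 replicate 1, 3 or 4, at adjusted p between 0.0559 and 0.131. IPI1 fell by 6.40 ± 1.75 at M2 in S. cerevisiae (SE; edgeR adjusted p = 0.00453), the largest fall of that comparison.

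NMD3 is the export adaptor of the large subunit, and Lsg1 is the cytoplasmic GTPase that releases it. NMD3 in S. cerevisiae reached 2469.5, 1053 and 1589 CPM at T0, 80.2, 71.3 and 11.3 at M1, 99.3, 321 and 55.8 at M1M2, and 134, 73.2 and 51.8 at M2. NMD3 in S. paradoxus reached 221, 235 and 438 CPM at T0, 29.6, 251 and 64.8 at M1, 101, 14.7 and 12 at M1M2, and 23.1, 0 and 41.6 at M2. NMD3 in the hybrid reached 1134, 1096, 1042 and 1622 CPM at T0, 9.15, 61.4, 85.5 and 5.56 at M1, 41.7, 13.5, 38.9 and 34.7 at M1M2, and 58.1, 39.9, 10.8 and 12.5 at M2. Only 1 library, S. paradoxus M1 replicate 2, came back into the T0 range of its genotype. At M2 in the hybrid NMD3 fell by 5.22 ± 0.93 on the log2 scale (SE; edgeR adjusted p = 1.44e-05), the largest fall of that comparison. Its log2 change was -5.01 ± 1.06 at M1 in S. cerevisiae (SE; edgeR adjusted p = 0.0012) and -3.75 ± 1.00 at M2 in S. paradoxus (SE; edgeR adjusted p = 0.00568, and 0.0565 without M2 replicate 2). LSG1 was called in the hybrid at all 3 stages and in neither parent, and whether its change differed between genotypes did not pass a test of that difference at any stage. Its hybrid calls were lost in 6, 7 and 9 of 16 alternatives and single-library omissions at M1, M1M2 and M2, with adjusted p up to 0.170, 0.176 and 0.199 by edgeR.

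Between successive later stages few members were called. From M1 to M1M2 no member was called in either parent by edgeR, with 2 in S. cerevisiae and 1 in S. paradoxus at an unadjusted p under 0.05, and DESeq2 called 1 and 0. Of all genes, 2.33% and 1.84% were called at that step in the parents. In the hybrid 2 rose, DBP2 and NOC2, where 4.46% of all genes rose. NOC2, a partner of Mak21 in early particles, went from 12.8, 58.3, 48.4 and 16.7 CPM to 104, 162, 162 and 79.1 CPM without overlap. The rise was 1.87 ± 0.62 on the log2 scale (SE; edgeR adjusted p = 0.05, just under the threshold before rounding). NOC2 lost that call without any 1 of these libraries other than M1 replicate 2, at adjusted p between 0.0611 and 0.221, and under 5 of the other settings. From M1M2 to M2 no member was called in any genotype by edgeR, where 9.11%, 0% and 0.679% of all genes were called in S. cerevisiae, S. paradoxus and the hybrid. Unadjusted p was under 0.05 for 2 members in S. cerevisiae, 0 in S. paradoxus and 6 in the hybrid, and DESeq2 called 1, 0 and 4. The hybrid median for that step was 0.62 on the log2 scale, with 23 of 29 values positive, against -0.08 over all genes.

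Before sporulation, at T0, all 29 members were lower in S. paradoxus than in S. cerevisiae, with log2 differences of -3.47 to -1.63 and a median of -2.34, against 0.12 over all genes. The libraries did not overlap for 28 of the 29, NOP2 being the exception, and 18.9% of all genes were lower without overlap. Only DBP10 was called by edgeR, where 1.68% of all genes were called lower, while 24 members had an unadjusted p under 0.05. The share of all genes under that unadjusted level is not given here, so the 24 have no background beside them. DBP10, a helicase of the nucleolar particle, was at 1159.6, 1178 and 1139.5 CPM in S. cerevisiae, 133, 239 and 276 CPM in S. paradoxus and 1127, 864, 1099.6 and 1129 CPM in the hybrid. S. paradoxus stood far under both others, with a log2 difference of -2.42 ± 0.76 from S. cerevisiae (SE; edgeR adjusted p = 0.0452). That call did not survive the omission of any 1 of the 6 T0 libraries, with adjusted p between 0.0567 and 0.217, nor the replicate block, at 0.0564. The number of members called depended on the method: 12 with DESeq2, 23 with limma on the deposited variance-stabilised values, 11 without the 4 shallowest libraries (all of later stages) and 4 with another scaling. With the last, 161 of all genes were called, 91 of them higher in S. paradoxus. The shares of all genes called by the other methods are not given here, so their member counts have no background beside them. That scaling, DESeq2-type size factors in edgeR, moved the median of all genes by -0.20 in this comparison, and members remained lower in all 29 cases.

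At later stages the differences between the parents had both signs. The median difference of S. paradoxus from S. cerevisiae was 0.02 at M1, -0.46 at M1M2 and -1.24 at M2 on the log2 scale. No member was called at M1 or M2 by edgeR, where 2.84% and 2.13% of all genes were, with 6 and 8 at an unadjusted p under 0.05, and DESeq2 called 0 and 2. MAK5 was called at M1M2, where 2.71% of all genes were called lower. MAK5, a helicase, measured 40, 2812 and 121 CPM in S. cerevisiae and 15.6, 35 and 30.6 CPM in S. paradoxus, and the high value is from the library with 23453 counts. The log2 difference of -5.04 ± 1.3 (SE; edgeR adjusted p = 0.0154) was -1.55 with adjusted p = 0.843 without that library, and the call was also lost without any 1 S. paradoxus M1M2 library. Tested directly, the change from T0 was less negative in S. paradoxus than in S. cerevisiae by a median of 2.53, 1.99 and 1.78 on the log2 scale at M1, M1M2 and M2, for 27, 27 and 24 of 29 members. edgeR called none of these differences, with 12, 6 and 8 at an unadjusted p under 0.05, where 0.42%, 0.194% and 0.485% of all genes were called in that direction. DESeq2 called 9, 4 and 3, and limma on the deposited values 8, 3 and 2. No share of all genes is given beside these counts or beside those at an unadjusted p under 0.05. These differences in change share the T0 libraries with the difference at T0 itself.

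At T0 the hybrid was compared with each parent in turn. Against S. paradoxus all 29 members were higher, with a median of 2.04 and a range of 1.1 to 2.75 on the log2 scale, against 0.02 over all genes. Libraries did not overlap for 25 of 29, where 10.3% of all genes were higher without overlap. edgeR called none, where 0.873% of all genes were called higher, with 17 at an unadjusted p under 0.05. DESeq2 called 5 and limma on the deposited values 9. These counts and the 17 have no share of all genes beside them. Against S. cerevisiae the median was -0.40, with 24 of 29 negative and none called by edgeR, 0 at an unadjusted p under 0.05 and 0 by DESeq2, where 0.84% of all genes were called. All hybrid libraries lay under all S. cerevisiae libraries for 9 members, where 6.5% of all genes were that low. Both comparisons use the same hybrid libraries. At M1, EBP2 and NOG1 were lower in the hybrid than in S. cerevisiae, where 4.07% of all genes were called lower. EBP2, a nucleolar factor, was at 105, 906 and 119.9 CPM in S. cerevisiae and 6.41, 92.2, 56.9 and 4.45 CPM in the hybrid, without overlap. The log2 differences were -3.17 ± 0.88 for EBP2 (SE; edgeR adjusted p = 0.0199) and -2.82 ± 0.76 for NOG1 (SE; edgeR adjusted p = 0.0167). Both calls were lost without S. cerevisiae M1 replicate 2, at adjusted p of 0.528 and 0.0931, without hybrid M1 replicate 1, at 0.132 and 0.0894, and without hybrid M1 replicate 4, at 0.134 and 0.105. With the 4 shallowest libraries left out they were 0.42 and 0.0718. Set against the mean of the parents, the hybrid's change from T0 differed by medians of -1.70, -1.14 and -0.08 at M1, M1M2 and M2. No member was called, with 8, 1 and 2 at an unadjusted p under 0.05 by edgeR and 1, 0 and 0 calls by DESeq2, where 0%, 0.42% and 0% of all genes were called.

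Within the hybrid both parental alleles of each gene are counted in the same cells. At T0 the S. paradoxus allele supplied 69.7%, 48.7%, 50.3% and 50.7% of the members' allele counts. The first value is from hybrid T0 replicate 1, the library that stands apart over all genes, and the other libraries sit near equal shares. The shares were 38.9% to 49.5% at M1, 48.6% to 51.5% at M1M2 and 45.7% to 49.9% at M2, against 51.0% to 52.0%, 51.4% to 52.0% and 50.6% to 51.8% for all genes. No member was called between alleles at any stage by edgeR, where 0.1%, 0.934%, 0.901% and 1.74% of all genes were called at T0, M1, M1M2 and M2. Unadjusted p was under 0.05 for 1, 5, 1 and 2 members, and DESeq2 called 0, 2, 0 and 2. Without hybrid M1 replicate 2, 2 members were called at M1. The median allele difference at T0 was 0.41 on the log2 scale with replicate 1 and -0.08 without it, against 0.47 over all genes with it. Single genes varied more: the S. paradoxus share of NMD3 was 72.4%, 48.6%, 61.0% and 7.55% in the T0 libraries, and that of NOP7 64.2%, 55.6%, 81.0% and 70.1%.

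The difference between the parents at T0 was then set beside that between the alleles. For all 29 members the parental difference was more negative than the allelic one, with a median of -2.53 and a range of -4.48 to -1.37 on the log2 scale for the first minus the second, against -0.16 over all genes. For DBP2 the difference was -1.85 ± 0.78 between parents and 0.08 ± 0.58 between alleles, and for NOG1 -1.90 ± 0.80 and 0.19 ± 0.73 (log2, SE). The allelic values were within 1 of 0 for 21 members, and the parental ones under -1 for all 29. A direct test of parental minus allelic difference, added after the data were seen, called no member by edgeR, where 0.356% of all genes were called in that direction, with 10 at an unadjusted p under 0.05 and a lowest adjusted p of 0.416. This test took the alleles of a hybrid library as separate samples, with no library block, so their pairing was not used. No other tool was run for it, and the share of all genes at an unadjusted p under 0.05 is not given. Without hybrid T0 replicate 1 the median was -2.57, again with all 29 negative. At M1, M1M2 and M2 the median of parental minus allelic difference was 0.71, -0.07 and -0.50.

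**Figure D5:**
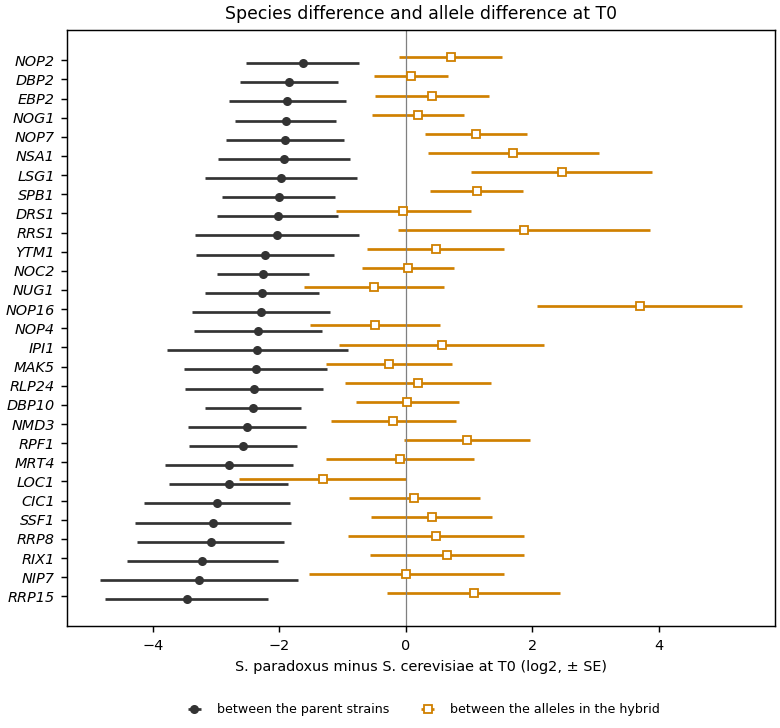
Log2 difference of S. paradoxus from S. cerevisiae at T0 for each member, with standard errors: filled circles between the parent strains (n = 3 each), open squares between the alleles within the hybrid (n = 4). Circles lie between -3.47 and -1.63, and squares scatter about 0, most within 1 of it, with NOP16 at 3.70.

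Genes of neighbouring pathways were counted the same way. Of all genes tested, 4.78%, 5.43% and 11.6% fell in S. cerevisiae at M1, M1M2 and M2. The shares were 9.41%, 12.4% and 14% in the hybrid and 1.94%, 5.11% and 8.24% in S. paradoxus. Of 34 genes of the small subunit processome and rRNA modification, 17, 17 and 25 fell in S. cerevisiae at M1, M1M2 and M2, 27, 25 and 22 in the hybrid and 4, 5 and 9 in S. paradoxus. Their median in S. paradoxus against S. cerevisiae at T0 was -2.20, near the -2.34 of the module. UTP15, a small subunit processome protein, fell by 5.47 ± 1.66 on the log2 scale at M1 in S. cerevisiae (SE; edgeR adjusted p = 0.0252). NOP1, the rRNA methyltransferase fibrillarin, fell by 6.72 ± 0.93 in the hybrid (SE; edgeR adjusted p = 2.97e-07). Of 13 further large-subunit factors, 4, 1 and 4 fell in S. cerevisiae, 7, 5 and 9 in the hybrid and 0, 1 and 0 in S. paradoxus. Of 12 genes of RNA polymerase I and its regulators, 3, 2 and 4 fell in S. cerevisiae, 7, 7 and 9 in the hybrid and 1, 2 and 5 in S. paradoxus. Of the 43 large-subunit ribosomal protein genes in S. cerevisiae, 2, 29 and 37 fell at M1, M1M2 and M2, and 34, 37 and 37 fell in the hybrid and 2, 15 and 21 in S. paradoxus. At T0 their median in the hybrid against S. paradoxus was -0.13, where the module had 2.04. Their mRNAs summed at T0 to 70100 to 77853 CPM in S. cerevisiae and 22558 to 39401 CPM in S. paradoxus. The hybrid had 21562 to 38262 CPM. In sum these genes were thus also lower in S. paradoxus than in S. cerevisiae, and the hybrid lay near S. paradoxus. None of these lists had a member that rose from T0, where 1.42% to 12% of all genes rose in the single comparisons.

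The motifs were set beside the change from T0 without a test. Of 102 other genes in the tables that carry both cores, 31, or 30.4%, fell at M1 in S. cerevisiae, 47, or 46.1%, in the hybrid and 8, or 7.84%, in S. paradoxus. Of 2085 other genes with neither, 2.69%, 6.57% and 1.49% fell. The 102 included 25 of the small subunit processome and rRNA modification genes and 7 of the further large-subunit factors. How much of the difference goes with these pathways was not tested. Medians over the 102 genes with both cores were -2.59, -2.66 and -0.80 on the log2 scale, and over the 20 members with both -4.08, -4.83 and -1.63. The 403 other genes with a PAC core alone had medians of -0.26, -0.09 and 0.04, and the 129 with an RRPE core alone -0.66, -0.65 and -0.19. Of the 4 members without a PAC core 2 fell at M1 in S. cerevisiae and 2 in the hybrid, and of the 5 without an RRPE core 4 and 4. Their medians were -3.61 and -4.27 in S. cerevisiae and -3.23 and -3.45 in the hybrid. Over the 9 comparisons with T0, SPB1, NSA1, RIX1 and IPI1, which have no PAC core, were called 8, 6, 2 and 2 times.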

How the data were processed

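Poly-A-selected RNA was sequenced from 40 libraries of sporulating yeast. Reads were processed with Bowtie 0.12.7 and DESeq 1.8.3, per the submitters' processing notes. The counting tool, annotation and build are not given in the sources used here. The deposited counts are whole reads per feature, given per allele for the hybrid, whose total is the sum of both alleles. The deposited variance-stabilised values are on a log2-like scale made by the authors and served as an alternative. Of 3463 features, 246 name no gene (0.392% to 4.95% of a library's counts) and were left out.

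Counts were fitted in R 4.3.3 with edgeR 4.0.16 (quasi-likelihood test, TMM scaling, filterByExpr) in one model of 12 groups over all 40 libraries, with Benjamini-Hochberg adjustment over all 3094 genes tested and a threshold of 0.05. Alleles were fitted over the 16 hybrid libraries with the library as a block, on 2997 genes. Alternatives used DESeq2 1.42.0, limma 3.58.1, other scaling and filters, and omission of single libraries. The parental against allelic test and the grouping by motif were added after the data were seen. The former was fitted as 20 groups on 3092 genes, without a library block. The edgeR steps were tested on simulated data. The median count over members and libraries was 2316 at T0 in S. cerevisiae and 35 at M2 in S. paradoxus. The edgeR p-values set a difference against the spread between libraries of a group, estimated over all groups of the fit. In the hybrid that spread includes any difference between the reciprocal crosses. The members and gene lists were chosen with earlier results of these data known. Library values are given for RLP24, NOG1, NOP7 and DBP2 and for the first listed member of each other role. Other members are named for the largest called change or where stated, and at most 2 genes of each other list by their largest called change. Promoters came from RefSeq, build R64.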

Additional observations from a re-analysis of the deposited data

Results flagged for a closer look

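In groups of 4 libraries, a value was singled out where 1 library lay far from the other 3 relative to the range of the group. Of 40 groups examined, 8 had such a library. Chance gives about 1 in 20 groups where values are independent and normally distributed. The groups here share libraries and genes, so the 8 cannot be set directly against that rate.

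Hybrid T0 replicate 4 was high in 3 measures. DBP2 was at 6540 CPM where the other libraries had 4090 to 4260 CPM, NMD3 at 1620 CPM against 1040 to 1130 CPM, and the summed members at 34300 CPM against 26100 to 26300 CPM. At M1 in the hybrid, RLP24 stood at 97.9 CPM in replicate 4 against 8.71 to 23 CPM in the others. NOP7 stood at 67 CPM in replicate 3 of that group against 8.9 to 17.2 CPM.

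Hybrid T0 replicate 1 had 69.7% of the members' allele counts from S. paradoxus, against 48.7% to 50.7% in the others, and 65.5% of all allele counts, against 49.5% to 51.8%. Without it, 23, 23 and 19 members fell in the hybrid at M1, M1M2 and M2, and the median allele difference at T0 was -0.08 on the log2 scale. Hybrid M2 replicate 4 had 50.6% of all allele counts from S. paradoxus, and each of the other libraries of that group 51.8%.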

How the results depend on the processing

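Of 667 counts of called members recomputed under other settings, 572 stayed within 1.5 times the reported count, 95 moved and 0 changed direction. The cause of these moves was not tested. The shares of all genes called under these settings are not given beside the counts below. DESeq2 gave 28 at M2 in S. cerevisiae, 1 for each later step there, 4 for the hybrid step from M1M2 to M2, and 12, 2 and 2 for the species at T0, M1M2 and M2. It gave 9, 4 and 3 for the species' difference in change, 2 and 3 for the hybrid against the parental mean at M1 and M2, 1 for that difference in change to M1, 1 and 1 for the hybrid against S. cerevisiae at M1M2 and M2, and 5, 2 and 3 against S. paradoxus at T0, M1 and M2. For alleles it gave 2 at M1, 2 at M2 and 1 for the change to M1. limma on the deposited values gave 29 at M2 in S. cerevisiae, 1 for the hybrid step from M1 to M1M2, 23 and 2 for the species at T0 and M2, 8, 3 and 2 for their difference in change, and 9 for the hybrid against S. paradoxus at T0. Without the 4 shallowest libraries the counts were 6 at M2 in S. paradoxus, 11 and 0 for the species at T0 and M1M2, 3, 2 and 1 for their difference in change, 1 for the hybrid against the parental mean at M1 and 1 for its change, 0 against S. cerevisiae at M1, and 4 and 2 against S. paradoxus at T0 and M1. Size factors gave 4 for the species at T0, 1 for the hybrid step from M1 to M1M2, 2 for the hybrid against the parental mean at M2 and 1 against S. paradoxus at M2. No filter, or features that name no gene kept, gave 2 for the species at T0 and 1 for that hybrid step, and no filter 1 for alleles at M1. Fits on S. paradoxus alone gave 2 at M1M2 and 4 at M2. With a replicate block the species count at T0 was 0 and that hybrid step 1, and 144 of 153 called member values kept their call. Replicate numbers showed no general pairing of the libraries: over 204 same-numbered pairs the median correlation of deviations was 0.000429. Of these pairs 20 were over 0.1, with a highest value of 0.238, and 17 of 40 libraries matched their own number best. The number of such matches that chance would give was not computed, so this check cannot exclude pairing in part of the groups. Leaving out 1 library gave 14 to 19, 9 to 16 and 16 to 18 members at M1, M1M2 and M2 in S. cerevisiae, 2 to 3, 1 to 5 and 3 to 11 in S. paradoxus, and 18 to 23, 20 to 23 and 18 to 20 in the hybrid. It gave 0 to 1 for each later step in S. cerevisiae, 1 to 2 for the hybrid step from M1 to M1M2, 0 for the species at T0, 0 to 1 for them at M1, M1M2 and M2 and for their change to M1, 0 to 1 for the hybrid against the parental mean at M1, 0 to 3 and 0 to 1 against S. cerevisiae at M1 and M1M2, and 0 to 2 for alleles at M1. Member values of 0 numbered 38, of which 1 was at T0. They came from 10 libraries, which held 23453 to 1623624 counts in genes. Whether depth caused them was not tested.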
